A study of Talpa occidentalis and Mus musculus with 35 samples.

Results

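The SOX, DMRT, GATA, LHX, IRX and EMX families, the sine oculis homeobox family (SIX2, SIX4 and others), and WT1 are transcription factors, several of which build the early gonad or set its sex. They were read from the gene annotation of the Iberian mole, Talpa occidentalis (assembly talOcc3), as every gene line named with a numbered symbol of these families or as WT1. The annotation held 23336 gene lines, of which 41 belonged to these families. They carried 40 symbols and lay on 25 of 2074 scaffolds. A locus here means 1 gene line, and the best locus of a symbol is the one with the highest deposited score.

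The study sequenced polyadenylated RNA of gonads in 35 libraries, 19 from moles and 16 from mice, to look for genes behind the ovotestis that female moles carry. Mole libraries came from the ovotestis and the testis at embryonic day 15 (2 each), and, with 3 libraries per group at postnatal day 7 and 2 in adults, from the testis and from both portions of the ovotestis, ovarian and testicular. Mouse libraries came from ovary and testis of the CD1 strain at embryonic day 13.5, postnatal day 7 and 10 weeks (2 each), and from embryonic day 13.5 ovaries of an Fgf9 mutant and of a wild type labelled B6 (2 each). All animals but the Fgf9 mutant were labelled wild type, the nature of the mutation is not given, and the strain label of those last 4 libraries changes from library to library. The file analysed gives positions of gene models and no value per library, so what follows is about the loci and not about expression, and the labelled tissues could not be checked against marker genes.

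As background, the gonad of a mammal starts as a bipotential ridge on the mesonephros. WT1, EMX2, LHX9 and GATA4 are needed for the ridge to grow, SOX9 then turns supporting cells into Sertoli cells, and DMRT1 keeps them male after birth. Each family binds DNA through its own domain: the HMG box in SOX, the DM domain in DMRT, zinc fingers in GATA and WT1, and a homeodomain in LHX, IRX, EMX and the sine oculis homeobox factors.

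The families differed in how many of their genes had a mole locus. All 6 GATA genes, both EMX genes and WT1 had one, as did 7 of 8 LHX genes, 5 of 6 sine oculis homeobox genes, 6 of 8 DMRT, 11 of 19 SOX and 2 of 6 IRX genes. Of 56 expected symbols, 16 thus had no locus under their symbol among the lines analysed. These were SOX1, SOX3, SOX4, SOX8, SOX11, SOX12, SOX18 and SOX21, DMRT3 and DMRTC1, LHX3, SIX5, and IRX1 to IRX4. All 16 carried their symbol in the annotation of the later mole assembly MPIMG_talOcc4v2.1, which held 55 of the 56 (SIX4 was not found there by symbol). Among the 54 expected genes named in both the mouse and that later assembly, 15 (27.8%) had no talOcc3 locus, against 8.05% of the 14568 genes of all kinds named in both. Duplicate loci were few. SOX10 was the single member symbol with more than 1 locus (1 of 40, 2.5%), against 14.6% of all symbols.

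**Figure D1:**
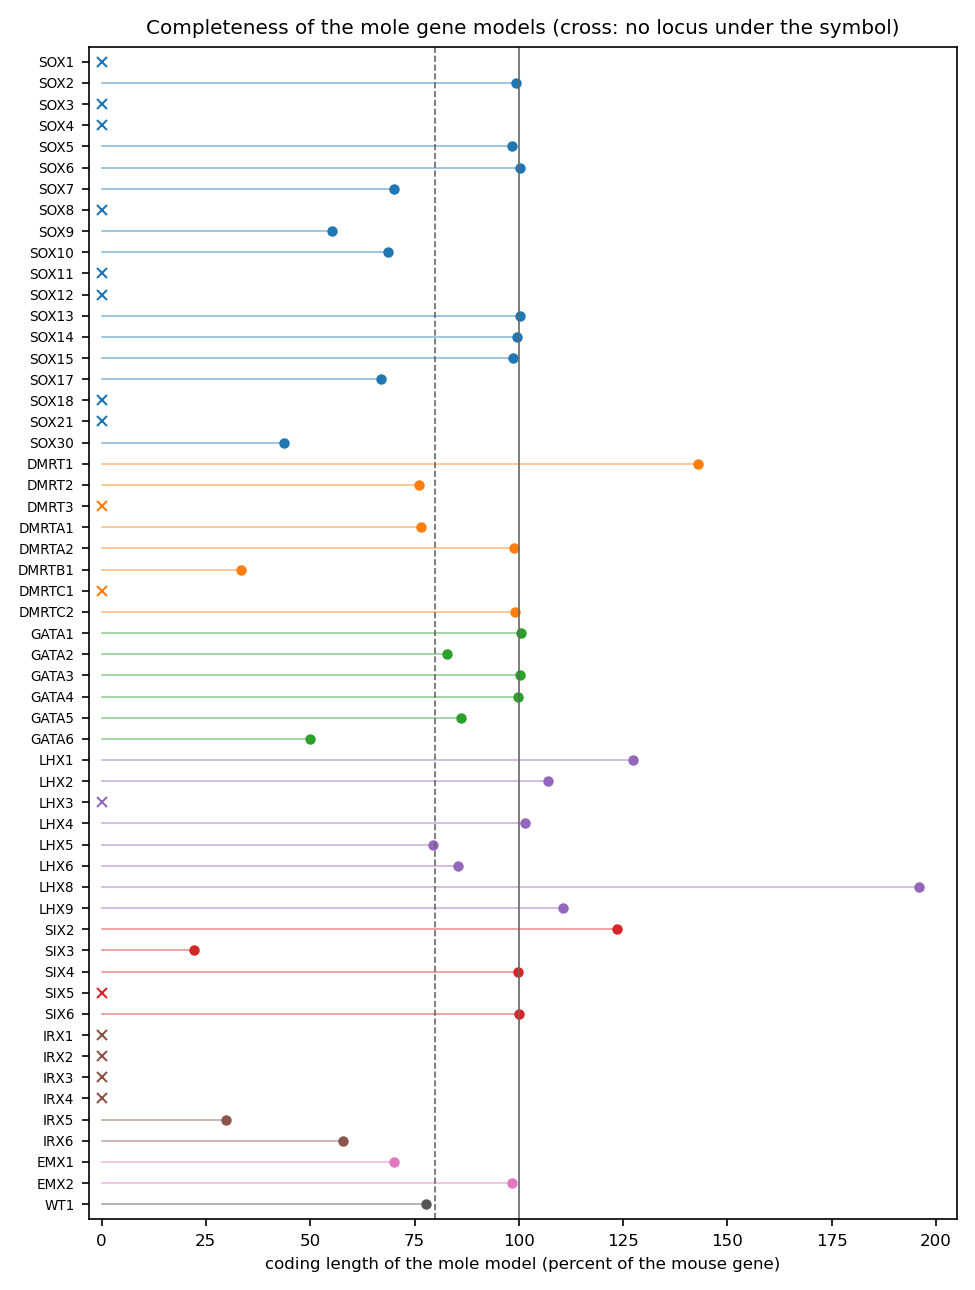
Coding length of the best mole model of each symbol as a percent of the longest coding transcript of the mouse gene (x axis, percent), for 55 of the expected genes grouped and coloured by family (y axis). Crosses at 0 mark the 16 symbols with no locus, the dashed line is at 80% and the solid line at 100%. SIX3 has the lowest value of those with a locus (22.1%) and LHX8 the highest (196%).

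The genes with no locus had mouse coding sequences rich in G and C. The GC content of the mouse coding sequence ran from 61.1% (Irx4) to 73.6% (Sox1) in the absent genes that have a mouse counterpart. It ran from 51.9% (Sox6) to 73.6% (Dmrta2) in those with a locus. Over all genes compared, the share with a mole locus was 95.2% (95% interval 94.4 to 95.9) at a GC of 45 to 50%, 76.0% (70.7 to 80.8) at 65 to 70% and 58.7% (48.6 to 68.2) at 70% or more. The intervals cover counting error only. In the same classes, 8 of 15 expected members had a locus at 65 to 70%, and 1 of 5, DMRTA2, at 70% or more. Below that, 16 of 20 had one at 60 to 65%, where the share over all genes was 86.9%, and every one of the 15 members under 60% had a locus. Of the members with a single coding exon in the mouse, 2 of 8 had a locus, namely SOX2 and SOX14, against 38 of 47 members with more exons. Over all genes these shares were 81.1% and 92.7%. Whether GC content or exon number has a part in which genes were annotated was not tested.

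**Figure D2:**
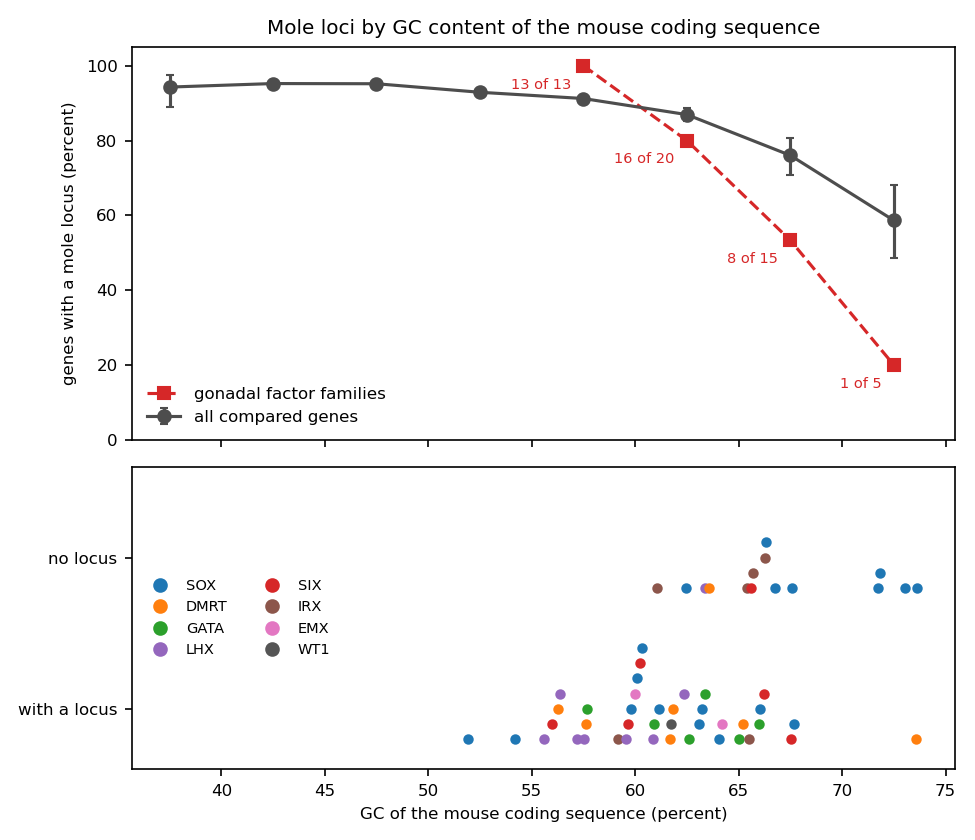
Top, percent of genes with a mole locus (y axis) by GC content of the mouse coding sequence (x axis, percent, in classes of 5 points; the outermost are open-ended) for all compared genes (circles, with exact 95% binomial intervals) and for members in classes holding at least 5 of them (squares, with counts). Bottom, each expected member as a point coloured by family, with or without a locus; both lines fall with GC, and members reach 1 of 5 in the highest class.

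Models that were present were often shorter than the mouse gene. The median coding length was 98.6% of the longest mouse coding transcript, close to the 99.6% of all genes, but 15 of 40 members (37.5%) were short, meaning under 80%, against 18.8% of all genes compared. At the other end 6 of 40 (15%) exceeded 110%, against 20.3% of all genes compared. A coding length that is not a multiple of 3 was found in 5 of 40 members (12.5%), SOX6, SOX9, SOX10 and DMRTA2 among them, against 6.84% of all symbols. A single coding exon was found in 6 of 40 (15%), against 8.77%. Over all genes with a mole locus, the median coding length was 94.7% of the mouse at a GC of 65 to 70% and 86.4% at 70% or more. The source label of the models differed as well: 24 of 40 member models (60%) were labelled EVM, 10 ALN and 6 exonerate, whereas EVM models made up 81.4% of all symbols.

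Exons were compared by length, since the lengths of coding exons are widely kept between mammals. A mouse coding exon counted as matched where the mole model had an exon of exactly that length in the same order, the last exon with or without the 3 bases of a stop codon. Of 203 mouse coding exons of the members, 109 (53.7%) were matched. The share was lowest at the 5′ end. There, 5 of 38 first coding exons (13.2%) were matched, against 85 of 125 internal exons (68%) and 18 of 38 last exons (47.4%). Over all genes these shares were 21.4%, 79.1% and 51.1%. The first exons of the members had a median GC of 66.3% in the mouse, and the internal exons 56.8%. In all, 29 of 40 members (72.5%) shared at least 1 exon length with the mouse, against 88.1% of all genes compared. The 11 that did not were SOX2, SOX7, SOX9, SOX10, SOX15, SOX17, DMRTA1, DMRTA2, GATA5, SIX3 and IRX5.

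GATA factors bind the motif they are named for through a pair of zinc fingers, each held by 4 cysteines, and the exon that encodes the C-terminal finger is the most regular feature of the family. In the mouse it was 126 bases long in all 6 genes. In the mole an exon of 126 bases was found in GATA1, GATA2, GATA3, GATA4 and GATA6. The mouse exons (GRCm38, GENCODE M21) are shown for 4 of them, coding strand 5′ to 3′, with the codons of the 4 cysteines in capitals, since this is the stretch that kept its length in both species. The cysteines were found by translating the exon and searching for a pair 2 residues apart, then 17 residues, then another such pair.
Gata1 (chrX:7960583-7960708, minus strand): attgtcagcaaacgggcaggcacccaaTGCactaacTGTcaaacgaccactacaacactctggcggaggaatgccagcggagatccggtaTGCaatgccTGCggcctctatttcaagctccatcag
Gata2 (chr6:88204583-88204708, plus strand): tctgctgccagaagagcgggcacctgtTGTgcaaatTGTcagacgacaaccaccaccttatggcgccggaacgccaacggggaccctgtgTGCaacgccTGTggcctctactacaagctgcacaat
Gata3 (chr2:9863095-9863220, minus strand): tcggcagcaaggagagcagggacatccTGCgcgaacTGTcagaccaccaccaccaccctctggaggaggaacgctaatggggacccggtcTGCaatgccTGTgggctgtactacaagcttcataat
Gata4 (chr14:63203659-63203784, minus strand): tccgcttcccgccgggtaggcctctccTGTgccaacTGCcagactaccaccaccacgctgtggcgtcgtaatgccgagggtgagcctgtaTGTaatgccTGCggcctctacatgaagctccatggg
The capitals stand at the same positions in all 4, while Gata2 and Gata3 share 98 of 126 bases and Gata3 and Gata4 share 84. The other finger lies on the exon before. That exon has 146 bases in GATA1, GATA2 and GATA3 of both species. After the C-terminal finger, GATA4 and GATA6 share an exon of 88 bases in both species.

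GATA4, required in the genital ridge and in Sertoli cells, was annotated on scaffold 13 from 60477748 to 60544363 (plus strand) with 12 coding exons and 1326 coding bases, 99.8% of the mouse. Its exons of 170, 126 and 88 bases matched the mouse. The 7 exons before them summed to 613 bases, none inside the aligned interval of the reference transcript, and the first coding exon of the mouse, a single one, has 613 bases. GATA6, which acts beside GATA4 in granulosa and Sertoli cells, lay on scaffold 3 from 28628185 to 28653065 (minus strand). It had 885 coding bases, 50% of the mouse, and the model began with an exon of 220 bases where the mouse has one of 1117. GATA5, a cardiac and endodermal factor, lay on scaffold 2 from 492282 to 494757 (plus strand) with 1047 bases, 86.2% of the mouse. Only 15.6% of that model aligned to its reference transcript, none of its 5 exon lengths occurred in the mouse gene, and its score was 180 where those of the other GATA models ran from 974 to 1875. The gene is thus placed between its mouse neighbours SLCO4A1 and CABLES2, but the model holds no exon of 126 bases.

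The blood-forming members of the family were close to the mouse. GATA1, the erythroid factor that Sertoli cells also use, lay on scaffold 24 from 2632159 to 2635050 (minus strand) with 5 exons and 1248 bases (100.5%). GATA3, known for T cells, lay on scaffold 14 from 30580009 to 30597849 (minus strand) with 5 exons and 1335 bases (100.2%). Each matched 4 of 5 mouse exons. GATA2, a factor of blood stem cells, lay on scaffold 12 from 9006700 to 9011960 (plus strand) with 1194 bases (82.7%). It had 1 exon of 622 bases where the mouse has exons of 229 and 642.

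**Figure D3:**
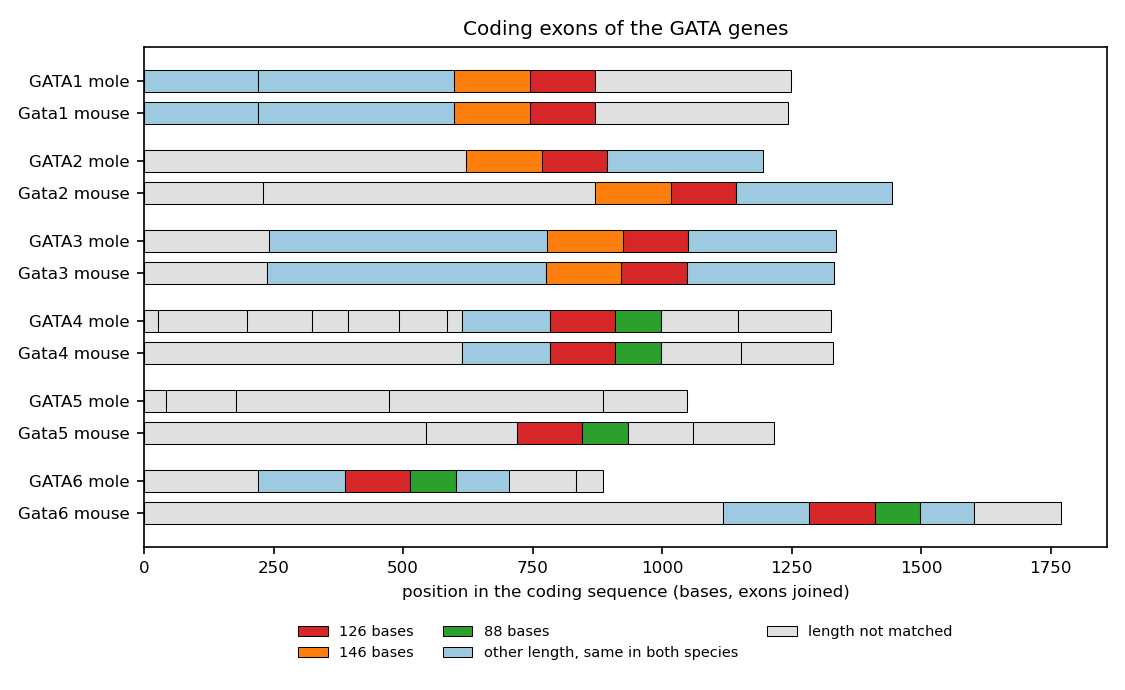
Coding exons of GATA1 to GATA6 in the mole (upper bar of each pair) and the mouse (lower bar), drawn to scale in bases of coding sequence (x axis) with introns left out. Exons of 126, 146 and 88 bases are coloured, other exons of equal length in both species are light blue and unmatched exons grey; GATA5 of the mole has no coloured exon, and the GATA6 model begins 220 bases before its first matched exon.

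SOX factors bend DNA through the HMG box. SOX9, the effector of testis determination, had 1 locus, on scaffold 28 from 19363397 to 19364237 (plus strand). It was a single exon of 841 bases, 55.2% of the mouse, with a score of 605, and it aligned to positions 1057 to 1899 of its reference transcript. The mouse gene has coding exons of 431, 254 and 839 bases, of which the last is nearest in length to the mole exon. The end of the HMG box lies in the second coding exon of the mouse, shown here because the mole model has no exon of that length. The capitals mark the 7 codons of the conserved end of the box.
Sox9 (chr11:112783809-112784062, plus strand): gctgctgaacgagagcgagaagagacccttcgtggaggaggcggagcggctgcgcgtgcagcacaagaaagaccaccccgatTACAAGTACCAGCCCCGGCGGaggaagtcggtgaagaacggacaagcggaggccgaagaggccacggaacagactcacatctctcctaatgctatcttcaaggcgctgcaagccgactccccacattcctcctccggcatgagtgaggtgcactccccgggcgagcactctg
SOX8, which acts with SOX9 in Sertoli cells, had no locus. Its mouse neighbours TEKT4 and NARFL stood on scaffold 17 with 73.9 kb between them and 0 models inside, where the mouse has 297 kb. SOX10, the neural crest factor of the same subgroup, had 2 loci. The best, on scaffold 19 from 40468485 to 40471441 (minus strand), had 2 exons and 962 bases (68.7%) and covered positions 705 to 1660 of the reference transcript. The other, on scaffold 11189 from 20 to 871, had 568 bases, reached 58.7% of the highest score and covered positions 1119 to 1660, which the best locus also covers. No exon length of SOX9 or SOX10 equalled that of the mouse.

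The SOXD genes SOX5, SOX6 and SOX13, which carry a coiled coil and no activation domain of their own, kept most of their exons. SOX5 (scaffold 31, 5800957 to 6135641, plus strand) had 14 exons and 2253 bases (98.3%), of which 13 matched the mouse. SOX6 (scaffold 18, 37497482 to 37806546, minus strand) had 15 exons and 2491 bases (100.2%), with 12 matched. SOX13 (scaffold 35, 13444052 to 13453655, plus strand) had 14 exons and 1848 bases (100.3%), with 9 matched. All 3 shared exons of 173 and 69 bases, in both species. SOX5 and SOX6 were also long: introns summed to 332 kb in SOX5 and 307 kb in SOX6, against 374 and 322 kb in the mouse, but to 7.76 kb in SOX13, against 7.78 kb.

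The remaining SOX loci had few exons. SOX2, the pluripotency and neural factor, was a single exon of 954 bases (99.4%) on scaffold 4 from 27733299 to 27734252. SOX14, a factor of brain interneurons, was a single exon of 720 bases (99.6%) on scaffold 13 from 14664672 to 14665391. SOX15, the one member of its subgroup, had 687 bases (98.7%) on scaffold 25 from 17039012 to 17040336. These came near to full length. The SOXF genes are endothelial and endodermal factors. SOX7 had 801 bases (70.1%) and lay on scaffold 10386 from 1 to 801. It was the only model there, and the length of the scaffold itself is not given. SOX17 had 843 bases (66.9%) on scaffold 20 from 7272782 to 7274214, a length that makes 96.2% of the shortest complete mouse transcript. SOX18 had no locus. SOX30, expressed in male germ cells after meiosis, had 1029 bases (43.8%) on scaffold 21 from 11259402 to 11308525. Its exons of 180 and 493 bases matched, but the mouse first exon of 1054 bases did not.

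Several SOXB and SOXC genes with no locus, to which SOX3, the X-linked relative from which SRY arose, also belongs, leave intervals between their mouse neighbours. SOX1, a neural factor, has ANKRD10 and TUBGCP3, 285 kb apart on scaffold 39 (979.5 kb) with 2 models inside. SOX21, also neural, has GPR180 and ABCC4, 298 kb apart on scaffold 39 (322 kb) with 0 models inside. Both intervals were thus present on 1 scaffold. For SOX4, expressed in the fetal gonad, the neighbours PRL and CDKAL1 were 1007 kb apart on scaffold 40 (2261 kb) with 2 models inside. For SOX12 the neighbours NRSN2 and ZCCHC3 were 27.8 kb apart on scaffold 2 (39.3 kb) with 0 models inside. The neighbours of SOX11 lay on scaffolds 9 and 14, and those of SOX18 on scaffolds 1511 and 2, so that no interval could be drawn. None of the intervals of any absent member held a model without a symbol.

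DMRT factors share the DM domain, a zinc module that reads the minor groove, and DMRT1 is the member that holds male fate in Sertoli cells. DMRT1 lay on scaffold 15 from 19940607 to 20035259 (plus strand) with 7 exons and 1608 bases, 143% of the mouse. Its exons of 284 and 145 bases matched. Only 47.5% of the model aligned to the reference transcript: the last 2 exons, of 536 and 275 bases, stood outside the aligned interval. DMRT2, known for its role in somites, lay 77.7 kb further on, from 20112984 to 20117262 (plus strand), with 1281 bases (76%). Its exons of 103 and 1058 bases matched and the first had 120 bases where the mouse has 525. Dmrt3, an interneuron factor, stands between these genes in the mouse. In the mole the stretch from 20035260 to 20112983 held 0 models over 77.7 kb, where the mouse has 70.1 kb from Dmrt1 to Dmrt2.

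The other DMRT genes with a locus included the germ cell members. DMRTB1, which guides spermatogonia into meiosis, lay on scaffold 2 from 69699596 to 69702969 (minus strand) with 360 bases (33.3%) and a score of 153. DMRTC2, needed in meiotic prophase, lay on scaffold 36 from 12607814 to 12611297 (plus strand) with 8 exons and 1104 bases (99.2%), and matched 5 of 8 exons. DMRTA1 lay on scaffold 15 from 36923132 to 36931336 with 1128 bases (76.6%). DMRTA2, a factor of the developing cortex, lay on scaffold 2 from 71701283 to 71704143 with 6 exons and 1577 bases (98.8%), where the mouse has 2 exons. In no DMRT gene did the exon that encodes the DM domain, the first in the mouse genes, have the mouse length (0 of 6). First coding exons were seldom matched in general, in 21.4% of cases over all genes, so this count is not a trait of the DMRT genes.

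LIM homeodomain factors pair with LDB cofactors through their LIM domains. LHX9, without which no gonad forms, lay on scaffold 35 from 8371619 to 8382530 (plus strand) with 5 exons and 1320 bases (111%). Its last 3 exons, of 356, 203 and 258 bases, matched the mouse, and 299 bases at its start lay outside the aligned interval. LHX2, its close relative, lay on scaffold 15 from 48530959 to 48538974 with 1308 bases (107%). It aligned over 41.0% and matched 1 exon, that of 203 bases. LHX8, an oocyte factor, was the longest against the mouse, with 2163 bases (196%) on scaffold 2 from 53392213 to 53415551. Its first 783 bases lay outside the aligned interval, and 6 of 9 mouse exons matched. LHX8 and LHX6, an interneuron factor, shared exons of 122, 221 and 104 bases in both species. LHX6 had 1008 bases (85.5%) on scaffold 15 from 46915353 to 46938921.

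LHX1, required for the Müllerian duct and the kidney, lay on scaffold 25 from 31671732 to 31678966 (minus strand) with 1554 bases (127%), and 4 of 5 mouse exons matched. LHX5, its relative in the forebrain, was just short at 960 bases (79.4%) on scaffold 27 from 6839660 to 6847303. LHX4, a pituitary factor, had 1191 bases (101.5%) on scaffold 5 from 13237635 to 13264033. LHX3, its close relative in the pituitary, had no locus. Its neighbours UBAC1 and QSOX2 stood 83.2 kb apart on scaffold 15 with 0 models inside, against 188 kb in the mouse.

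The sine oculis homeobox factors work with EYA coactivators, and SIX4 has a part in the growth of the gonadal precursor cells. SIX4 (scaffold 6, 30188981 to 30197226, minus strand) and SIX6 (scaffold 6, 30060324 to 30062121, plus strand), an eye and pituitary factor, matched every mouse exon, with 2325 bases (99.9%) and 741 bases (100%). SIX2, of the kidney progenitors, lay on scaffold 9 from 26035666 to 26042336 (minus strand) with 4 exons and 1101 bases (124%). SIX3, of the forebrain, lay beside it from 25985292 to 25985522 (plus strand) with 231 bases (22.1%), the shortest member model. SIX5 had no locus. Its neighbours DMPK and FBXO46 stood 37.4 kb apart on scaffold 36 with 0 models inside, against 42.4 kb in the mouse.

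IRX factors are homeodomain proteins of the TALE class, and IRX3 and IRX5 act in the granulosa cells and oocytes of the ovary. IRX5 was a single exon of 462 bases (29.8%) on scaffold 26 from 23852396 to 23852857 (minus strand), and it aligned to positions 1436 to 1892 of its reference transcript. IRX6, the next gene, lay from 23593701 to 23595327 (minus strand) with 4 exons and 765 bases (58.0%). Both were short. IRX3 had no locus, and the stretch from IRX5 to FTO on the same scaffold, where it stands in the mouse, was 796 kb long (692 kb in the mouse). It held 2 models, BBS5 and KLHL41, and an empty run of 536 kb next to IRX5. The other cluster, of IRX1, IRX2 and IRX4, was without a locus as a whole. Its flanks MED10 and NDUFS6 stood on scaffold 8, from 172360 to 1363349, an interval of 1191 kb against 3504 kb in the mouse. That interval held 4 models and an empty run of 873 kb.

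EMX2, required for the gonad and the kidney to form, lay on scaffold 11 from 55194034 to 55209504 (plus strand) with 4 exons and 750 bases (98.4%). Its exons of 185 and 165 bases matched the mouse. It aligned to the reference transcript over 46.8%, and its first 398 bases stood outside. EMX1, a cortical factor, lay on scaffold 9 from 53695965 to 53711869 (minus strand) with 543 bases (70.2%) and shared both exon lengths with EMX2. The recognition helix of the homeodomain lies on the last exon of both mouse genes, which was matched in each.

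WT1, the zinc finger factor at the top of gonad and kidney formation, had 1 locus, on scaffold 18 from 21778994 to 21821442 (plus strand). It had 10 exons and 1209 bases, 77.8% of the longest mouse transcript, so it counts as short, but 7 of 10 exons matched. All 4 zinc fingers lie on matched exons, of 151, 90, 93 and 122 bases. The unmatched ones were the first 3, of 249, 174 and 104 bases against 646, 123 and 103 in the mouse. Mouse Wt1 has transcripts of several lengths, and against the shortest complete one the mole model reached 139%.

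The exons that carry the DNA-binding parts were looked at one family at a time. A short residue pattern was searched in each translated mouse gene: the start of the HMG box, the recognition helix of the homeodomain, the spaced cysteines or histidines of the fingers and of the DM domain. The exon that carries it was then looked up among the matched ones. It was matched for 10 of 12 GATA fingers, 4 of 4 WT1 fingers, both EMX genes, 4 of 7 LHX genes (LHX1, LHX4, LHX8 and LHX9), 2 of the 5 sine oculis homeobox genes (SIX4 and SIX6) and 3 of 11 SOX genes (SOX5, SOX6 and SOX14). It was matched in none of the 6 DMRT and 2 IRX genes. The pattern lay on the first exon in all 6 DMRT and all 5 sine oculis homeobox genes, on internal exons for all 12 GATA fingers, 3 of 4 WT1 fingers, 5 of 7 LHX and both IRX genes, and on the last exon in both EMX genes. Over all genes, first exons were matched least often and internal exons most often (21.4% and 79.1%, as given above), so families cannot be set against one another by these counts. An exon of another length can still hold the domain, so these are counts of equal length only.

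Members stood together in several places, counting neighbours within 1 Mb on a scaffold, and 3 of them are given here. On scaffold 9, SIX3 and SIX2 were 50.1 kb apart (57.5 kb in the mouse) and faced each other on opposite strands, as in the mouse. On scaffold 15, DMRT1 and DMRT2 were 77.7 kb apart, and on scaffold 26, IRX6 and IRX5 257 kb (299 kb). In these 3 pairs the relative strands were those of the mouse and no other model stood between the members. In the mouse, 5 further neighbouring pairs involve a gene with no mole locus. Gata4 and Sox7 stand 703 kb apart in the mouse, and their mole counterparts lay on different scaffolds. SOX7 was the only model on its scaffold, annotated to base 801, so whether the pair is kept cannot be told.

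**Figure D4:**
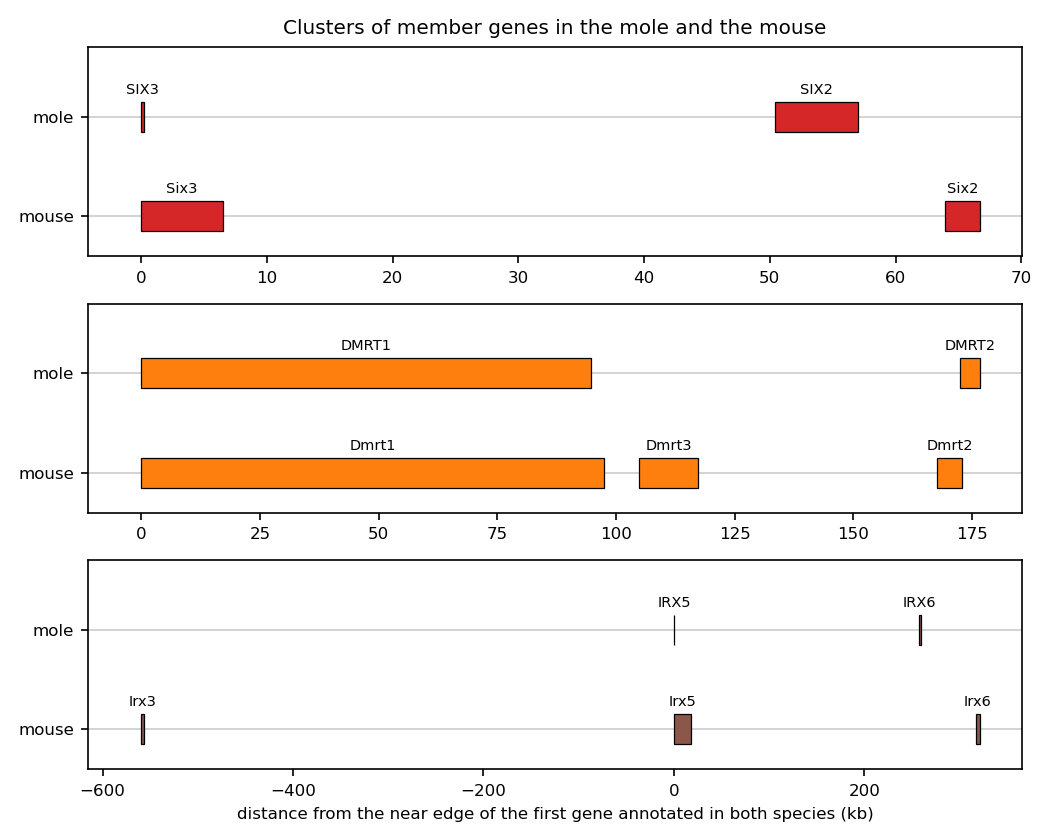
Member clusters described in the text, in the mole (upper line of each panel) and the mouse (lower line), as distance in kb from the near edge of the first gene annotated in both species. Boxes are mole gene lines or mouse coding spans, to scale within a panel; the mole IRX cluster is drawn mirrored, and mouse Dmrt3 and Irx3 have no mole box.

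The members had wide stretches without genes around them. Space is the distance to the nearest locus on the left plus that on the right, between gene lines in the mole and between coding spans in the mouse. Its median was 219 kb over the 39 members with a neighbour on both sides, from 1.01 to 1808 kb, while that of all named genes was 49.8 kb. In the mouse the same members had a median of 242 kb and all genes 50.3 kb. A space of at least 200 kb was found for 20 of 39 members (51.3%), against 16.8% of all genes. Counting every locus as a neighbour, SOX9 had the most, 1808 kb (2170 kb in the mouse). Of this, 1422 kb lay toward KCNJ2, the potassium channel gene that borders it in the mouse as well. The other 386 kb lay toward a locus of 4 exons named as a copy of SLC39A11. When only neighbours with more than 1 exon counted, SOX9 had 2284 kb and GATA3, with 2457 kb, had the most. With every locus counted, SOX5 followed SOX9 with 1597 kb and DMRTA1 with 1249 kb. The least was found for SOX15, 1.01 kb between MPDU1 and FXR2, then DMRTC2 (9.57 kb) and GATA1 (11.3 kb). The locus to the left of GATA1 was named as a copy of HDAC6, and GATA1 had 52.8 kb in the mouse.

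Among the genes of the genital ridge, EMX2 had 508 kb (556 kb in the mouse), WT1 254 kb (145 kb), LHX9 228 kb (272 kb) and GATA4 75.1 kb (141 kb). The GATA4 gene line spanned 66.6 kb, while the introns between its coding exons summed to 28.1 kb and its coding bases to 1326. The part of that line beyond the coding exons lowers the mole value, whereas mouse space starts at the coding span. DMRT1 had 141 kb (79.7 kb, with Dmrt3 as a near neighbour). Thus WT1 and DMRT1 had more space than in the mouse, which was so for 11 of 39 members (28.2%), against 45.4% of all genes. Single-exon loci named as copies of other genes bordered some members. DMRT2 had 85.7 kb against 991 kb in the mouse, because a single-exon copy of the ribosomal gene RPL21 stood 7.98 kb away, and 846 kb when only neighbours with more than 1 exon counted. In the same way GATA3 went from 1131 to 2457 kb (2782 kb in the mouse), GATA6 from 254 to 857 kb (818 kb), SOX2 from 726 to 1558 kb (1672 kb) and SOX14 from 226 to 719 kb (741 kb). The mouse values count every protein-coding gene as a neighbour, those with a single exon included.

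**Figure D5:**
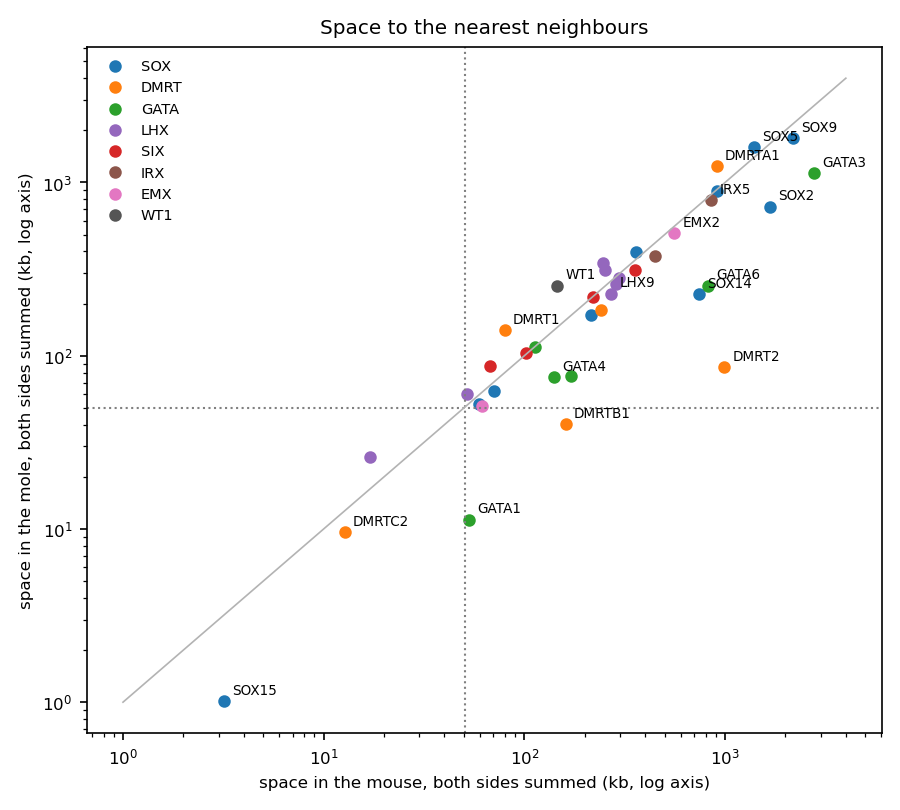
Space to the nearest neighbours, both sides summed, of 38 members in the mouse (x axis, kb) and the mole (y axis, kb), both on log axes, coloured by family. Dotted lines are the medians of all genes (50.3 and 49.8 kb) and the diagonal marks equal values; points farthest below it include DMRT2, GATA1, DMRTB1, SOX14, GATA6 and SOX15.

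Gene order around the members was that of the mouse in nearly all cases. Of 38 members with neighbours on both sides among genes named once in both annotations, 36 (94.7%) kept both, against 89.1% of all such genes. The exceptions were SOX14, with RPL41 on one side, and SOX17, with TMEM68. Against the later mole assembly both kept the neighbours compared there. For SOX17 these included TMEM68. For SOX14 the gene compared on that side was IL20RB, so its place beside RPL41 was not checked. Against that assembly 36 of 37 (97.3%) kept both, where 93.4% of all genes did. The exception was DMRTA1: its left neighbour in talOcc3 among the genes compared, MTAP, was not its neighbour in the later assembly.

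Partners of these factors were counted in the same way, from a list of 30 genes that holds GATA cofactors, EYA and DACH genes, LIM cofactors and other gonadal regulators. Of these, 28 had 1 locus, none had several, and ZFPM1 and FOXL2 had none. Over all genes, 14.6% of symbols had several loci and 8.05% of the genes compared had none. The 2 of 30 without a locus are thus no more than usual. ZFPM1 is a cofactor of GATA1 and FOXL2 keeps granulosa cells female. Both carried their symbol in the later mole assembly, and their mouse coding sequences had a GC content of 65.1% and 71.5%. The partners with a locus were short in 6 of 28 cases, near the 18.8% of all genes, and had a median of 99.4% of the mouse coding length. Their median space was 372 kb, with 19 of 28 at 200 kb or more. Over all genes the median was 49.8 kb and 16.8% had 200 kb or more. The members had 219 kb and 51.3%, so wide space was not particular to them.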

How the data were processed

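The 35 libraries held polyadenylated RNA of mole and mouse gonads, made with standard Illumina protocols per the labels. STAR 2.6.1d and the mouse build mm9 are named in the submitters' processing notes, with no role given. The file analysed is a gene annotation of the mole assembly talOcc3 and belongs to no library. It has 0 unused columns with values of single samples, so library depth is unknown and no expression was compared.

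Positions are 1-based, as the authors deposited them. The score of each transcript model was deposited by the authors beside the aligned interval of a named reference transcript. Its meaning is not given in the sources available, and neither is the making of the models labelled EVM, exonerate and ALN. Of several loci with 1 symbol, the one with the highest score was taken.

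Members were gene lines whose identifier, without a copy number or low-confidence mark, was a numbered SOX, DMRT, DMRTA, DMRTB, DMRTC, GATA, LHX, IRX, EMX or sine oculis homeobox symbol, or WT1. The members, the list of expected symbols, the partner list and the thresholds were chosen with earlier results of these data known. Some items are not reported here by name; they stay in the counts. Given in full are those with several loci, no locus, a short model, a place in a cluster, the most or least space or a changed neighbour, and those with known roles in the gonad.

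Coding parts were joined per locus with scipy 1.17.1 and numpy 2.4.6 (Python 3.11.15), and matplotlib 3.10.9 drew the figures. The mouse reference was GENCODE M21 on GRCm38, read as the longest coding transcript of each gene. A RefSeq gene table of the later mole assembly MPIMG_talOcc4v2.1 gave names and neighbours only. Binomial intervals are exact (Clopper-Pearson, 95%). The distance, suffix-removal and member-selection steps were checked on simulated loci and names. The joining of coding parts and the exon matching were not checked in this way. No test was run, because an annotation has no replicates. Alternatives to each choice are in the closing section.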

Additional observations from a re-analysis of the deposited data

How the results depend on the processing

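Of 38 recomputed values, 32 stayed within 1.5 times the main value or, for the median space, within the 95% interval over the members (87.4 to 312 kb), and 6 moved further. The count of member symbols with several loci became 0 on scaffolds annotated to position 1000000 or beyond, and 0 with names as written. The lesser SOX10 locus lies on a scaffold annotated only to position 871, where that locus itself ends, and carries a copy suffix. Over all genes that count went from 2371 to 1351 for loci scoring at least 50% of the highest score of their symbol, and to 70 with names as written. With a threshold of 50% in place of 80% of the mouse coding length, 4 member models were short, and with 90% there were 18. Counting only neighbours on the same strand raised the median space of the members from 219 to 398 kb, and that of all named genes from 49.8 to 141 kb. The alternatives that follow were chosen after seeing the data: exon lengths within 3 bases in any order, every mouse transcript, multi-exon neighbours for the wide spaces, and both counts without the 4 models aligned over less than 50%. They left 9 and 11 members without a shared exon length, 21 and 18 wide spaces, and 15 short models. No share over all genes is given for these settings or for the 50% and 90% thresholds. The counts therefore describe the members alone. Coding length, exon count and space describe models of 1 assembly, and no sequencing depth stands behind any of them here. No paired analysis was possible because no value of the file belongs to a library.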

Other observations

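Some scaffolds held several members. Scaffold 15 held 5 members, namely DMRT1, DMRT2, DMRTA1, LHX6 and LHX2, and scaffold 2 held 4, namely GATA5, LHX8, DMRTB1 and DMRTA2. The mole model of DMRT1 was the one member locus that another named model overlapped, a locus named STX8. The gene lines of GATA4, EMX2 and LHX6 reached beyond their coding parts, which was so for 3 of 41 member loci. No share over all gene lines is given here for this count or for the overlap, so neither is a trait of the members. The introns between the coding exons of EMX2 summed to 12.2 kb in the mole and 4.07 kb in the mouse, with a longest intron of 9.71 kb against 2.04 kb. The mole model has 4 coding exons and the mouse gene 3, so the introns do not pair one to one. The first mole exon lies outside the aligned interval and matched no mouse exon. EMX1, its paralog, had a longest intron of 9.32 kb in the mole and 9.69 kb in the mouse.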
